A study of Mus musculus with 12 samples.

Results

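The genes described here are 392 long noncoding RNAs of mouse bone marrow-derived macrophages, 198 of the class lincRNA (transcribed between protein-coding genes) and 194 of the class antisense (transcribed from the strand opposite another gene). They were chosen from the 8385 genes of these 2 classes in a table of 54532 genes, by a mean of at least 1 CPM (counts scaled to library size) over the 12 libraries and a place on an autosome. Only 3425 of the 8385 had any count. Because the mean runs over all groups, an RNA low in some groups could enter through the groups where it was high. At the edge of the rule, AC168220.3 (1.01 CPM) and Gm26944 (1.00 CPM) were in, and Lppos (0.994 CPM) and Gm16124 (0.990 CPM) were out. The deposited positions are on mm10 (GRCm38), as are all coordinates given here.

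Bone marrow cells of male mice aged 8 weeks had been grown in M-CSF at 50 ng/mL, which drives precursors to become macrophages. The mice were Itga9-Lyz2-cHet (cHet below) or Itga9-Lyz2-cKO (cKO), and no group without the conditional Itga9 allele was among the samples. Itga9 encodes the alpha chain of an integrin, a receptor for the extracellular matrix, and Lyz2 is the lysozyme gene whose locus drives Cre recombinase in myeloid cells of Lyz2-Cre mice. Control cultures were compared with cultures given Pg, as it is named in the labels, for 2 hours (MOI 1:20). Each of the 4 groups (cHet control, cHet Pg, cKO control, cKO Pg) held 3 libraries of poly-A RNA. The labels do not say whether libraries came from separate mice or cultures, so the p-values speak only of library-to-library spread, possibly technical.

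Long noncoding RNAs are transcribed and often spliced and polyadenylated like messenger RNAs but carry no long open reading frame. Some act in the nucleus where they are made, some are by-products of an active promoter or enhancer, and some are precursors of small RNAs. Antisense and divergent transcripts near inflammatory genes are a known feature of activated macrophages. Whether the library kit and the counting used strand is not stated. Where exons coincide, reads of an antisense RNA may therefore not have been told apart from reads of the gene it overlaps. Of the 392 RNAs, 225 had a span that overlapped a protein-coding gene (183 antisense and 42 lincRNA), 171 had some exon sequence within a coding gene's exons, and in 10 this was over 50% of the exon length.

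Of the microRNA hosts, 3 were among the 392 and moved with Pg, and their products are shown because the small RNAs, not the measured host transcripts, are the better known effectors. The letters are RefSeq mature sequences on GRCm38.p6, 5′ to 3′, with the seed (bases 2 to 8) in capitals.
miR-155-5p, in Mir155hg: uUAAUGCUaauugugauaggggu
miR-142a-3p, in Mir142hg: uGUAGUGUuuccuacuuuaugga
miR-17-5p, in Mir17hg: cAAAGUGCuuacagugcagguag
miR-20a-5p, in Mir17hg: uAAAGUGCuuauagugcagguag
The last pair share the seed AAAGUGC, and the other seeds differ. They lie at chr16:84714143-84714165 (plus strand), chr11:87756903-87756925 (plus), chr14:115043684-115043706 (plus) and chr14:115044183-115044205 (plus), inside the deposited spans of their hosts. The libraries measured long poly-A RNA, so the level of the mature microRNAs was not measured.

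Promoter windows of 4 RNAs follow, from 250 bases before to 50 after the RefSeq start (300 bases, GRCm38.p6), each starting within 1 base of the deposited start. Capitals mark every match to 1 of 8 motifs of factors known in stimulated macrophages. The first 2 rose with Pg, the third did not pass the test although its window holds the same AP-1 letters, and the last responded differently in the genotypes.
Ptgs2os2, chr1:150164899-150165198, minus strand: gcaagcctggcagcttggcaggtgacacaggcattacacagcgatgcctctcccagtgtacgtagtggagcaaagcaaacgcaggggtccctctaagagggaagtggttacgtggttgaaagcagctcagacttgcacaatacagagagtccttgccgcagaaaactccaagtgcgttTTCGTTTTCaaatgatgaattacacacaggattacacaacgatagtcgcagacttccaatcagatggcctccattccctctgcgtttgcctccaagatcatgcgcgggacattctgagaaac
D330050G23Rik, chr2:116899902-116900201, plus strand: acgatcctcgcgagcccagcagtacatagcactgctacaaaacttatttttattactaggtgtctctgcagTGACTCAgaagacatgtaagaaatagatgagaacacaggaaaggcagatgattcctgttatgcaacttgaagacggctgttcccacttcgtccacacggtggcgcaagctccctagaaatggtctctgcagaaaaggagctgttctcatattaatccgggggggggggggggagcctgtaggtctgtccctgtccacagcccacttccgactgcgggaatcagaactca
Mirt1, chr19:53464747-53465046, minus strand: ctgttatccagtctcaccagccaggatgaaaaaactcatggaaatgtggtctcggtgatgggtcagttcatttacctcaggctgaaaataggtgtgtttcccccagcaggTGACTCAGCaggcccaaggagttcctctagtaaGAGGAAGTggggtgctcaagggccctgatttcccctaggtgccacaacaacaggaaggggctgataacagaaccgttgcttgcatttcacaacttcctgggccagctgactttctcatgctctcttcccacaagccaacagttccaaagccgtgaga
AW112010, chr19:11050517-11050816, minus strand: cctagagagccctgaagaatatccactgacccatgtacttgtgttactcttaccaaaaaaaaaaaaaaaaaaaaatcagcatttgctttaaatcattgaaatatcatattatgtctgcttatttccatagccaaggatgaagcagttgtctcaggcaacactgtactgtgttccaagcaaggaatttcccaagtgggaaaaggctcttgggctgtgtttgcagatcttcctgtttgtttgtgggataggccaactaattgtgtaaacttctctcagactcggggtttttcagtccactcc
The Ptgs2os2 window held 1 match to the interferon response element (GAAANNGAA, read here on the other strand), 72 bases before the start. D330050G23Rik held 1 AP-1 match (TGANTCA) 179 bases before the start. In Mirt1 the AP-1 match, 140 bases before the start, overlapped a match to the antioxidant response element core (TGACNNNGC), and a PU.1 match (GAGGAAGT) lay 107 bases before the start. The AW112010 window had no match to the 8 patterns as written. The NF-kB pattern was a single form of that consensus, and broader forms were not searched.

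RefSeq windows could be matched to 184 of the 392 RNAs, and in 148 the window's start site lay within 1000 bases of the deposited one. On either strand, the AP-1 letters were in 8.11% of these 148 windows and in 7.81% of all 32851 RefSeq windows. They were in 5 of 27 windows of RNAs that rose with Pg in either genotype (18.5%), in 0 of 33 of RNAs that fell, and in 7 of 88 of RNAs called in neither direction (7.95%). Those 5 were D330050G23Rik, 1110002J07Rik, D730003I15Rik, Gm34643 and Gm16907. The antioxidant core, which can overlap AP-1, was in 22.2%, 6.06% and 18.2% of these 3 sets, against 12.4% of all windows. CRE (TGACGTCA) was in 7.41%, 3.03% and 0%, against 1.79%. PU.1 was in 11.1%, 6.06% and 9.09%, against 3.20%. For the NF-kB consensus the shares were 3.70%, 3.03% and 7.95%, against 5.81%. EGR (GCGNGGGCG) was in 7.41%, 6.06% and 6.82%, against 5.55%, and the interferon element in 7.41%, 12.1% and 11.4%, against 8.56%. The serum response CArG box was in 0%, 3.03% and 0%, against 1.63%. With 27 and 33 windows, 1 window is over 3% of a set, and no share was tested. A match is a run of letters and does not show that a factor bound there.

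Depth was 14527674 to 16793803 counts a library, and the 392 RNAs took 0.501% to 0.526% of them in the 6 cHet libraries and 0.529% to 0.577% in the 6 cKO libraries. Neat1 and Malat1 made up 48.2% to 55.0% of these counts. Libraries separated by treatment on the first principal component (51.5% of the variance of the 2000 most variable genes) and by genotype on the second (20.9%). On the third (5.84%), cHet control 1, cHet Pg 1, cKO control 1 and cKO Pg 3 stood apart from the other 2 libraries of their groups, so the main counts were also taken without them. Itga9, the targeted gene, was at 32.3, 17.9 and 18.9 CPM in cHet control, 11.5, 5.98 and 6.42 CPM in cKO control, 19.4, 34.0 and 33.4 CPM in cHet Pg and 13.6, 11.6 and 7.84 CPM in cKO Pg, so no cKO library reached the level of any cHet library. By the edgeR test its log2 difference (cKO minus cHet, ± standard error) only just passed in controls (-1.53 ± 0.37, adjusted p 0.0497). It did not pass under Pg (-1.39 ± 0.36, adjusted p 0.12), and the mean of both did (-1.46 ± 0.26, adjusted p 0.012). The 13 macrophage markers summed to 28620 to 32238 CPM in cHet control and 30452 to 36260 in cHet Pg. In cKO the sums were lower, at 19619 to 22890 CPM in control and 22416 to 25836.5 with Pg. Among these markers Lyz2, whose locus drives Cre in Lyz2-Cre mice, had means of 19366 and 19510 CPM in cHet control and Pg. In cKO control and Pg the Lyz2 means were 9764 and 10142 CPM. Lyz2 was the only 1 of the 13 markers called between genotypes in controls, and also the only 1 under Pg. Csf1r, the next highest marker, had means of 4773 CPM in cHet control and 4903 CPM in cKO control. In these bulk samples, fewer cells of a type and less RNA per cell cannot be told apart. Stromal and fibroblast markers also differed between genotypes and are given beside those results.

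Levels of the 392 RNAs were low, with a median of 2.20 CPM, or 1.32 CPM per kilobase of transcript. On the per-kilobase scale, by which genes can be compared, Neat1, the scaffold of nuclear paraspeckles, was highest at 106 CPM per kilobase. Next came 4930430E12Rik (86.1) and Malat1 (84.1), a nuclear-speckle RNA. The RNA 2900097C17Rik, known as Norad and a decoy for Pumilio proteins, stood at 41.7 CPM per kilobase, Mir155hg at 40.4 and Tug1 at 11.2. Gm26917, a locus known to collect ribosomal RNA reads, was at 249 CPM in cHet control 2 and at 63.5 to 122 CPM in the other 11 libraries, so its level is not taken as that of a noncoding RNA.

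Pg changed about as large a share of the noncoding RNAs as of all genes. In cHet, 124 of the 392 passed the edgeR quasi-likelihood test at an adjusted p under 0.05 (31.6%), 70 higher and 54 lower, against 36.1% of the 13800 genes tested (18.0% higher and 18.0% lower). In cKO, 130 passed (33.2%), 74 higher and 56 lower, against 34.0% of all genes (16.9% higher and 17.1% lower). Called rises of at least 2-fold numbered 47 (12%) and falls 22 (5.61%) in cHet, against 4.96% and 3.07% of all genes, and 48 (12.2%) and 27 (6.89%) in cKO, against 4.87% and 3.46%. These totals mix levels. At 1 to under 2 CPM in cHet, such rises numbered 18 and falls 12 of 176 RNAs, against 109 and 79 of 1215 genes tested. At 5 to under 20 CPM they numbered 14 and 1 of 74 RNAs, against 104 and 85 of 3217 genes. The median change of all 392 was -0.07 on the log2 scale in cHet and -0.03 in cKO, beside -0.01 and 0.00 for all genes tested. The split depends on the scaling: by library size instead of TMM (trimmed mean of M-values), all genes shifted to a median of -0.25 in both genotypes, and 51 RNAs were higher and 107 lower in cHet (32.3% higher, against 56.5% by TMM), and 59 and 106 in cKO (35.8% against 56.9%). Changes are therefore given relative to the median gene. Without the 4 libraries that stood apart, 126 passed in cHet and 123 in cKO. In the libraries then left, the third component ran from -6.85 to -5.25 in controls and from 3.81 to 9.64 with Pg. Pg and that component therefore cannot be told apart in this setting.

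The share called rose with the level. In cHet, 19.3% of the 176 RNAs at 1 to under 2 CPM passed, 33.9% of the 118 at 2 to under 5, 51.4% of the 74 at 5 to under 20, and 50.0% of the 24 at 20 CPM or above. Over all genes tested, the shares in the same ranges were 17.8%, 26.6%, 35.0% and 49.0%. In each range the noncoding share was thus at or above that of all genes, and its lower total went with the many RNAs near the minimum level.

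**Figure D1:**
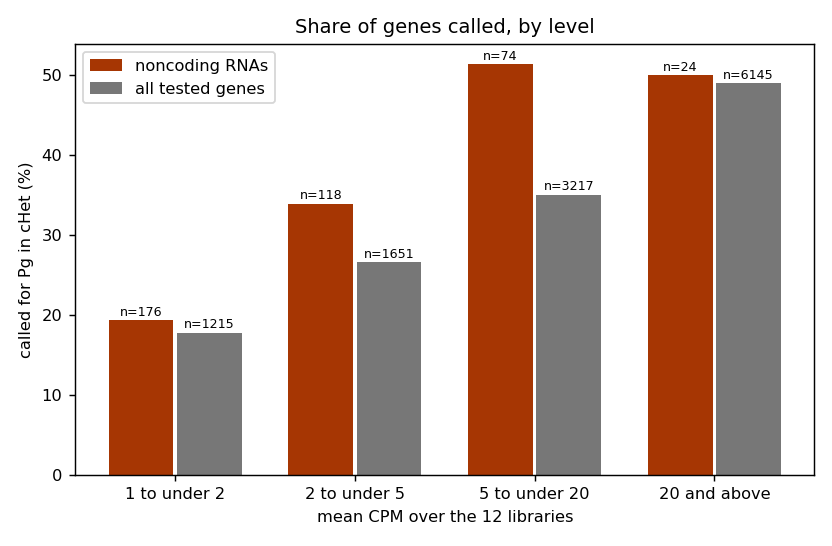
Share of genes called for Pg in cHet (edgeR adjusted p under 0.05), in percent, by mean CPM over the 12 libraries, with the number of genes above each bar. Noncoding RNAs stood at 19.3% in the lowest range and 51.4% at 5 to under 20 CPM, beside 17.8% and 35.0% of all genes tested.

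Both genotypes, which share no library in this comparison, gave similar lists. Of the rises, 57 were called in both, which is 81.4% of those in cHet and 77.0% of those in cKO. Of the falls, 29 were called in both (53.7% and 51.8%). Called in opposite directions was 1 RNA, Gm48653, described below, and 225 RNAs were called in neither. Across the 392 RNAs Pearson's r of the log2 changes was 0.813, a description of points that share libraries and low counts.

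**Figure D2:**
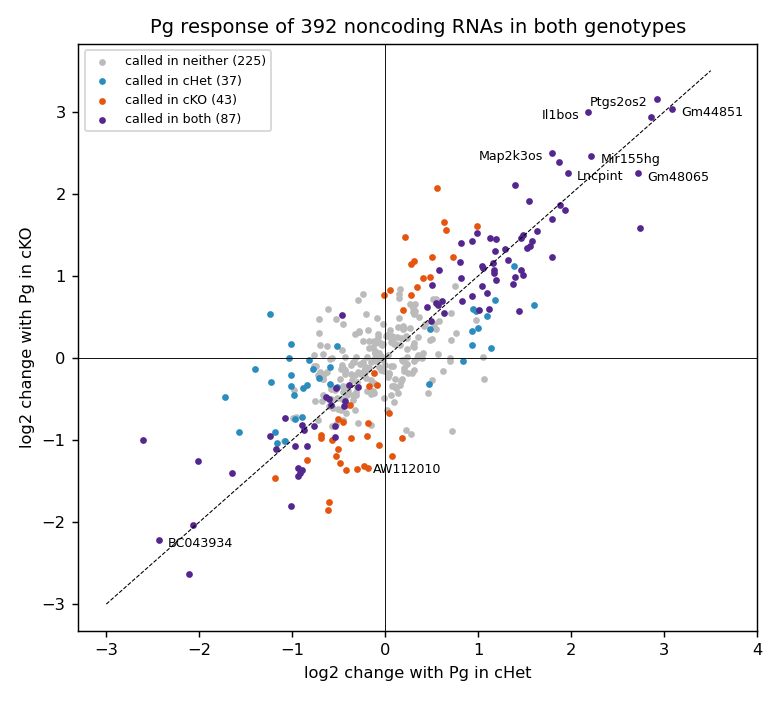
Log2 change with Pg of each of the 392 noncoding RNAs in cHet (x) and in cKO (y), coloured by the edgeR calls, with the line of equal change dashed. Most called RNAs lie near the line, with Ptgs2os2 and Gm44851 near 3 in both genotypes, whereas AW112010 changed by -0.23 in cHet and -1.32 in cKO.

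A list of 20 inflammatory coding genes held 18 rises and 1 fall in cHet and 18 rises and 0 falls in cKO. Among all genes tested, 18.0% rose and 18.0% fell in cHet, and 16.9% rose and 17.1% fell in cKO. The listed genes were chosen as inflammatory, with earlier results of these data known, and were not tested as a set. Their counts therefore do not show whether neighbours of the RNAs described here rose. Among RNAs next to inflammatory genes, Ptgs2os2 had the highest rise in cKO. This lincRNA (ENSMUSG00000097754, chromosome 1, 150159043 to 150164948, minus strand) lies beside Ptgs2, which encodes cyclooxygenase 2, the inducible enzyme of prostaglandin synthesis, with starts 59012 bases apart and no overlap. Its levels were 0.223, 0.408 and 0.311 CPM in cHet control and 3.02, 2.04 and 2.21 CPM with Pg, and 0.595, 0.0623 and 0.175 CPM in cKO control and 2.08, 2.77 and 2.82 CPM with Pg. Every Pg library was above every control library. All control libraries were under 1 CPM, so Ptgs2os2 met the minimum mean only through the Pg libraries, and the rule itself favoured a rise. The log2 change was 2.92 ± 0.45 (standard error) in cHet and 3.16 ± 0.46 in cKO (adjusted p 7.9e-05 and 4.5e-05). Ptgs2 itself rose by 4.82 ± 0.14 and 5.39 ± 0.14 on the same scale (adjusted p 3.5e-12 and 1.2e-12).

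Il1bos (ENSMUSG00000074805, antisense, chromosome 2, 129369897 to 129375748, plus strand) overlaps Il1b, the gene of the cytokine interleukin-1 beta, with 0.839% of its exon length in coding-gene exons. It was at 1.06, 0.641 and 0.374 CPM in cHet control, 4.36, 3.52 and 1.74 with Pg, 0.298, 0.374 and 0.525 in cKO control and 2.35, 2.92 and 4.47 with Pg, so the groups did not overlap in either genotype. Among control libraries only cHet control 1 was above 1 CPM, so Il1bos too met the minimum mean through the Pg libraries. The rise was 2.18 ± 0.41 in cHet and 3.0 ± 0.45 in cKO (adjusted p 0.00046 and 5.7e-05). Il1b rose by 3.02 ± 0.09 and 3.63 ± 0.09, from a mean of 184 to 1485 CPM in cHet and from 124 to 1525 CPM in cKO. If strand was not used in counting, reads of introns or of unspliced Il1b that fall on Il1bos exons could be counted for Il1bos, and this was not tested.

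Map2k3os (ENSMUSG00000042549, antisense, chromosome 11, 60920917 to 60931867, minus strand) starts 166 bases from the start of Map2k3, a kinase that activates p38, on the other strand and without overlap. It stood at 3.39, 2.91 and 3.24 CPM in cHet control and 10.6, 12 and 10.7 with Pg, and at 2.02, 2.68 and 3.21 in cKO control and 14.9, 15.8 and 14.2 with Pg. All Pg libraries were above all control libraries. It rose by 1.80 ± 0.16 and 2.50 ± 0.16 (adjusted p 1.1e-07 and 2.0e-09), and Map2k3 by 1.47 ± 0.08 and 1.59 ± 0.08.

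Gm44851 (ENSMUSG00000108436, antisense, chromosome 7, 80404269 to 80406577, plus strand) lies within Furin, the gene of a protease that matures proproteins, with 5.11% of its exon length in coding exons. Its levels were 0.612, 0.466 and 0.560 CPM in cHet control, 4.99, 4.93 and 4.22 with Pg, 0.833, 0.748 and 0.350 in cKO control and 5.38, 4.84 and 5.71 with Pg. With all control libraries under 1 CPM, Gm44851 met the minimum mean only through the Pg libraries, so the rule favoured a rise. The rise was 3.09 ± 0.28 in cHet, the highest there, and 3.03 ± 0.27 in cKO (adjusted p 1.7e-07 and 1.5e-07). Furin rose by 0.70 ± 0.07 and 0.72 ± 0.07, a smaller change on a much higher level (376 to 613 CPM in cHet).

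Gm48065 (ENSMUSG00000111116, lincRNA, chromosome 10, 44597889 to 44602174, minus strand) has Prdm1, a gene of the transcriptional repressor Blimp-1, as its nearest coding gene, with starts 160712 bases apart. It was at 3.90, 3.44 and 2.68 CPM in cHet control and 21.4, 23.9 and 20.9 with Pg, and at 4.88, 6.42 and 6.30 in cKO control and 19.8, 25.6 and 38.3 with Pg, with no overlap. The log2 change was 2.71 ± 0.23 and 2.25 ± 0.21 (adjusted p 7.5e-07 and 2.5e-06). Prdm1 rose by 1.24 ± 0.07 and 1.5 ± 0.07.

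4833427F10Rik (chromosome 17, 35772450 to 35780687, plus strand) has as neighbour Ier3, an early response gene. It rose by 1.87 ± 0.47 in cHet and 2.39 ± 0.46 in cKO (adjusted p 0.0048 and 0.00060), beside 1.13 ± 0.10 and 2.08 ± 0.11 for Ier3. Gm14005 (chromosome 2, 128178319 to 128502765, minus strand), whose locus is known as Morrbid, a regulator of the death gene Bcl2l11 in myeloid cells, went from 1.96 ± 0.43 to 5.20 ± 0.77 CPM in cHet (SD, n = 3 each) and from 2.82 ± 0.34 to 5.61 ± 0.85 CPM in cKO. Its log2 rise was 1.40 ± 0.22 and 0.99 ± 0.21 (adjusted p 7.8e-05 and 0.0013). Bcl2l11 rose by 0.94 ± 0.08 and 1.23 ± 0.08. Both genes of this pair were thus higher in Pg than in control libraries. The pair Gm32568 (chromosome 8, 66495059 to 66496946) and D330050G23Rik (chromosome 2, 116900152 to 116912791) rose too, without a tested nearest coding gene, by 2.86 ± 0.36 and 2.74 ± 0.45 in cHet and 2.93 ± 0.36 and 1.58 ± 0.40 in cKO.

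**Figure D3:**
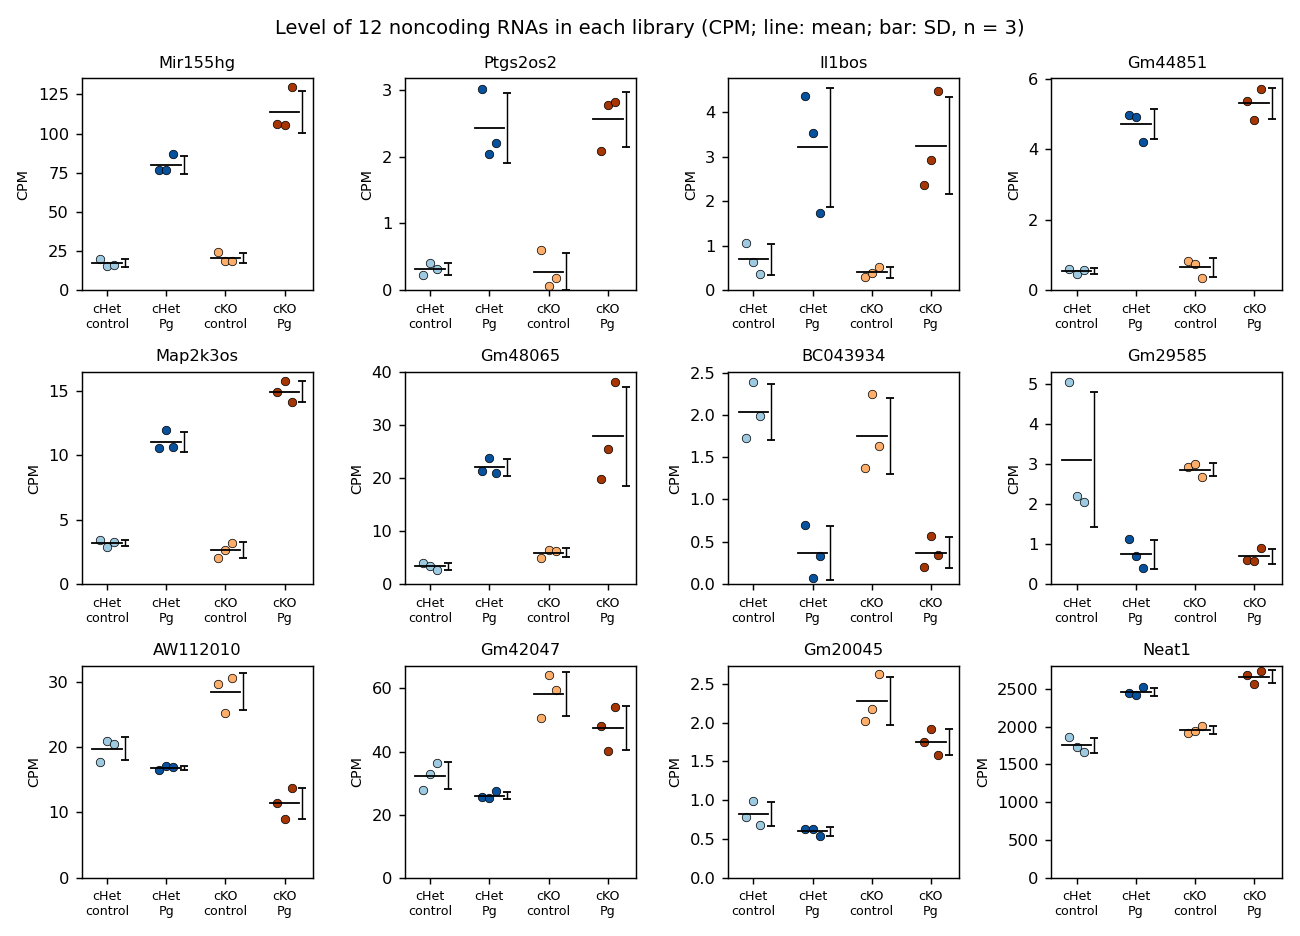
Level of 12 noncoding RNAs in CPM on TMM-scaled library sizes, 1 point a library, with the mean (line) and SD (bar, n = 3). Mir155hg, Ptgs2os2, Il1bos, Gm44851, Map2k3os and Gm48065 were higher with Pg in both genotypes, BC043934 and Gm29585 lower, AW112010 was lower with Pg in cKO (28.5 to 11.4 CPM), and Gm42047 and Gm20045 were higher in cKO.

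The microRNA hosts moved in both directions. Mir155hg (ENSMUSG00000097418, chromosome 16, 84703167 to 84715245, plus strand), the precursor of miR-155, a microRNA induced by inflammatory stimuli, was at 19.9, 15.3 and 16.3 CPM in cHet control and 76.7, 76.5 and 86.7 with Pg, and at 24.5, 18.8 and 18.9 in cKO control and 106, 106 and 129 with Pg. Pg libraries were above control libraries in both genotypes, and cKO Pg libraries above all cHet Pg libraries. Its rise was 2.22 ± 0.12 and 2.46 ± 0.12 (adjusted p 4.6e-09 and 1.2e-09). Mir17hg, the host of the miR-17 to miR-92 cluster that favours proliferation, rose from 5.60 ± 0.91 to 11.9 ± 1.4 CPM in cHet and from 7.74 ± 0.93 to 13.4 ± 3.9 CPM in cKO (log2 1.10 ± 0.19 and 0.79 ± 0.18, adjusted p 0.00022 and 0.0028). Mir142hg, the host of the blood-cell microRNA miR-142, fell from 7.63 ± 1.04 to 4.47 ± 0.42 CPM in cHet and from 8.35 ± 2.09 to 4.67 ± 1.40 CPM in cKO (log2 -0.77 ± 0.22 and -0.83 ± 0.22, adjusted p 0.012 and 0.0073). The cHet call of Mir142hg was lost without cHet control 2 or cHet Pg 2 (adjusted p up to 0.059). Pvt1, which also hosts microRNAs, was at 1.25 ± 0.18 and 1.40 ± 0.66 CPM in cHet and 0.679 ± 0.185 and 0.762 ± 0.141 CPM in cKO without passing any test, while its neighbour Myc, the growth-promoting transcription factor, rose by 1.95 ± 0.08 and 2.28 ± 0.08.

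Of 17 RNAs in a list of known regulatory long noncoding RNAs, 7 rose and 1 fell in cHet, and 6 rose and 3 fell in cKO, with a list median of 0.16 and 0.17 on the log2 scale. Of all genes tested, 18.0% rose and 18.0% fell in cHet, and 16.9% rose and 17.1% fell in cKO. The list was not tested as a set. Neat1 (chromosome 19, 5824708 to 5845478, minus strand) was at 1860, 1726 and 1667 CPM in cHet control and 2438, 2411 and 2522 with Pg, and at 1913, 1945 and 2010 in cKO control and 2683, 2567 and 2733 with Pg. Its groups did not overlap, and it rose by 0.49 ± 0.06 and 0.44 ± 0.06 (adjusted p 4.7e-06 and 1.5e-05). Its neighbour on the chromosome, Malat1, did not pass the test, with changes of -0.07 ± 0.16 and 0.29 ± 0.16 (adjusted p 0.77 and 0.21). Lncpint, a p53-induced RNA, rose by 1.96 ± 0.27 and 2.25 ± 0.27, from 1.26 ± 0.53 to 4.92 ± 0.72 CPM in cHet. Airn, the imprinted antisense transcript of Igf2r, rose by 1.11 ± 0.19 and 0.60 ± 0.18 (adjusted p 0.00016 and 0.014), beside 0.73 ± 0.09 and 0.49 ± 0.09 for Igf2r, and its cKO call was lost by library-size scaling and without cKO control 2 or cKO control 3 (adjusted p up to 0.10). The imprinted Kcnq1ot1 passed neither test (-0.35 ± 0.20 and -0.27 ± 0.19). Mirt2, known as a lipopolysaccharide-induced RNA that dampens inflammation, was called in cHet only just (1.14 ± 0.43, adjusted p 0.047), which did not hold in 10 of 19 other settings, among them leaving out any 1 cHet Pg library, cHet control 1 or 3, or cKO control 2 or 3 (adjusted p up to 0.18).

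The falls of this list were small. 1700020I14Rik, at a locus near Oip5, fell by 0.44 ± 0.08 in cHet and 0.59 ± 0.08 in cKO on the log2 scale (adjusted p 0.00047 and 3.0e-05), with levels of 74.1, 90.6 and 82.7 CPM in cHet control and 63.7, 57.5 and 60.8 with Pg. Norad (2900097C17Rik) fell by 0.18 ± 0.06 in cKO (adjusted p 0.032), a call lost without cKO control 3 or any 1 of the cKO Pg libraries (adjusted p up to 0.21). Dubr changed by -0.33 in cKO (adjusted p 0.0325), a call lost in 5 of 19 other settings (adjusted p up to 0.17). Among 4 hosts of small nucleolar RNAs, 1 of 4 (Snhg6) was called in cHet and 1 (Snhg20, -0.67 ± 0.17, adjusted p 0.0054) in cKO. Of all genes tested, 36.1% were called in cHet and 34.0% in cKO. The Snhg6 change (0.47 ± 0.17, adjusted p 0.044) did not hold in 15 of 19 other settings.

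The 8 largest falls in each genotype were in RNAs at 1.06 to 3.17 CPM. Of the 7 neighbours tested for each set, 1 fell in cHet (Gpatch2) and 2 in cKO (Ak4 and Setd1b), and none rose. BC043934 (chromosome 9, 96435783 to 96438138, minus strand) was at 1.73, 2.39 and 1.99 CPM in cHet control, 0.703, 0.0704 and 0.335 with Pg, 1.37, 2.24 and 1.63 in cKO control and 0.202, 0.569 and 0.344 with Pg. The change was -2.44 ± 0.48 and -2.22 ± 0.49 (adjusted p 0.00067 and 0.0018), without overlap, beside -0.01 and 0.05 for its neighbour Rnf7, a part of ubiquitin ligases. With all Pg libraries under 1 CPM, BC043934 met the minimum mean only through the control libraries. 1700055D18Rik (chromosome 4, 45011687 to 45015406, plus strand), which overlaps Zbtb5, changed by -2.11 ± 0.41 and -2.63 ± 0.41 (adjusted p 0.00062 and 8.5e-05). Gm13091 (chromosome 4, 150566869 to 150568544, minus strand), within Rere, changed by -1.65 ± 0.25 and -1.40 ± 0.26 (adjusted p 6.0e-05 and 0.00037). Gm29585 (chromosome 10, 128522263 to 128545359, plus strand) changed by -2.07 ± 0.40 and -2.04 ± 0.41 (adjusted p 0.00062 and 0.00087), and 64.2% of its exon length lies in exons of Esyt1 and Zc3h10. Esyt1, a tether between membranes, changed by -0.08 and -0.07 and passed neither test.

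Gm38155, antisense within Gpatch2, had the largest fall in cHet (-2.61 ± 0.38, adjusted p 3.7e-05), from 2.11, 2.10 and 1.81 to 0.492, 0.282 and 0.201 CPM. In cKO it changed by -1.0 ± 0.34 (adjusted p 0.030), a call lost without cKO control 1 or 3 or any 1 cKO Pg library (adjusted p up to 0.14). The difference between the genotypes' responses, 1.61 ± 0.52, did not pass the test (adjusted p 0.19). E430024I08Rik (cHet, -1.72 ± 0.35, adjusted p 0.00097) and 5930430L01Rik (cHet, -1.57 ± 0.43, adjusted p 0.0087) were called in cHet, and E130102H24Rik (cKO, -1.85 ± 0.27, adjusted p 3.9e-05), 4932422M17Rik (cKO, -1.76 ± 0.39, adjusted p 0.0022) and Gm44949 (cKO, -1.47 ± 0.41, adjusted p 0.010) in cKO. None of these 5 passed the test of the difference between responses. Gm26642, antisense to Rnpep and Elf3, fell in both (-1.01 ± 0.24 and -1.80 ± 0.24, adjusted p 0.0029 and 1.4e-05).

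Setting each RNA beside its nearest protein-coding gene by start position (the lower coordinate of each gene), the rises went with rises of the neighbour. The median distance between starts was 12138 bases, 174 of the 392 overlapped that neighbour, and 337 had a neighbour among the tested genes. In cHet, 60 of the 70 RNAs that rose had a tested neighbour, of which 48 rose (80.0%) and 0 fell. The neighbours of the 230 RNAs not called rose in 30.0% and fell in 18.7%, and among all genes tested 18.0% rose and 18.0% fell. In cKO, 48 of 66 neighbours of rising RNAs rose (72.7%) and 1 fell, beside 23.5% and 16.4% for RNAs not called. The neighbour that fell was Slc38a6, next to Gm48653. These shares depend on the scaling, since by library size 23 of 43 neighbours of rising RNAs rose in cHet (53.5%, against 9.33% of all genes) and 29 of 51 in cKO (56.9%, against 8.91%).

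For falls, of 47 tested neighbours of RNAs that fell in cHet, 16 fell (34.0%) and 4 rose, and of 45 in cKO 12 fell (26.7%) and 5 rose. By library-size scaling 52 of 91 (57.1%) and 50 of 85 (58.8%) fell, where 39.4% and 38.7% of all genes fell. With TMM the share of neighbours that moved along was thus higher for rises than for falls, and with library-size scaling the raw share was slightly higher for falls. By that scaling, however, far more genes fell than rose (39.4% against 9.33% of all genes in cHet). Set beside the share of all genes, neighbours of rising RNAs stood further above it than neighbours of falling RNAs, in both scalings and both genotypes. These shares were not tested. The 4 opposite pairs in cHet, named after their values were seen, were AU020206 with Klhl25, AU022793 with Lrp12, Gm26522 with Ctsc and Igf1os with Igf1. In cKO the 5 pairs were AU020206, AU022793 and Gm26522 with the same genes, 1700052K11Rik with Tlk2 and 4930599N23Rik with Kdm7a.

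AU020206 (chromosome 7, 75769038 to 75782099, minus strand) was the most abundant of the RNAs in these opposite pairs, at 62.7, 57.4 and 56.5 CPM in cHet control and 26.7, 32.7 and 35.6 with Pg, and at 88.7, 71.8 and 72.0 in cKO control and 34.4, 26.5 and 29.5 with Pg. Its change was -0.89 ± 0.12 and -1.36 ± 0.12 (adjusted p 2.7e-05 and 3.5e-07), against 0.46 ± 0.07 and 0.59 ± 0.07 for Klhl25, an adaptor of a ubiquitin ligase. Gm26522 (chromosome 7, 88278787 to 88283529, minus strand) overlaps Ctsc, the gene of the lysosomal protease cathepsin C. It fell from 10.9, 10.4 and 9.34 CPM to 6.11, 4.44 and 6.16 CPM in cHet (-0.87 ± 0.19, adjusted p 0.0018), while Ctsc rose by 0.57 ± 0.07. Kdm7a, a histone demethylase, rose by 1.10 ± 0.08 in cKO, where the overlapping 4930599N23Rik, with 32.6% of its exon length in exons of Kdm7a, changed by -1.36 ± 0.27 (adjusted p 0.00081).

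Counts were also taken by overlap of spans and by distance. For rises in cHet, 24 of 32 tested neighbours rose where the spans overlapped (2 of the 34 rising RNAs had an untested neighbour) and 24 of 28 where they did not. In cKO the counts were 25 of 32 and 23 of 34. For falls, 9 of 18 tested neighbours fell in cHet with overlap and 7 of 29 without, and 3 of 18 and 9 of 27 in cKO, so the order differed between genotypes. With starts within 10000 bases, 12 of 18 neighbours of rising RNAs rose in cHet and 16 of 21 in cKO, and with starts further apart 36 of 42 and 32 of 45. Pearson's r of the log2 changes across the 337 pairs was 0.491 in cHet and 0.495 in cKO, with 0.501 and 0.504 over the 178 pairs without overlap. The pairs share libraries, and 18 neighbours belong to more than 1 of the RNAs. Taking the neighbour by transcription start instead (the same gene for 248 RNAs), 47 of 58 neighbours of rising RNAs rose and 1 fell in cHet, and 42 of 63 rose and 1 fell in cKO. For falling RNAs, 16 of 45 fell and 8 rose in cHet, and 14 of 46 fell and 6 rose in cKO, so opposite pairs depend on how the neighbour is chosen.

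**Figure D4:**
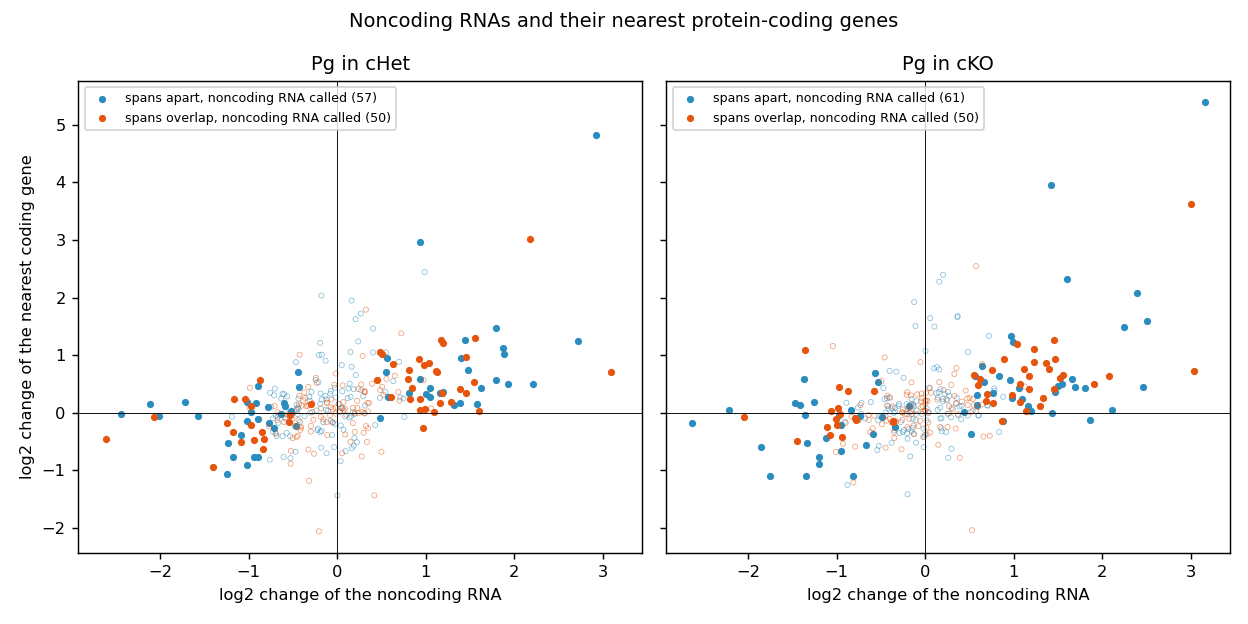
Log2 change with Pg of each noncoding RNA (x) and of its nearest protein-coding gene (y) in cHet and cKO, for 337 pairs, with filled points where the RNA passed the test. Filled points at the right lie almost all above 0 with and without overlap of spans (Pearson's r 0.499 and 0.501 in cHet), whereas those at the left lie on both sides of 0.

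Start sites on opposite strands within 1000 bases, the arrangement of divergent promoters, were found in 94 RNAs, 89 of them with a tested partner. Of 12 that rose in cHet, the coding partner rose in 9 and fell in 0, and of 11 in cKO it rose in 7 and fell in 0. Of 9 that fell in cHet the partner fell in 3 and rose in 1, and of 15 in cKO it fell in 6 and rose in 1. Among all genes tested, 18.0% rose and 18.0% fell in cHet, and 16.9% rose and 17.1% fell in cKO. For all rising RNAs, with the neighbour by start position, 80.0% of tested neighbours rose in cHet and 72.7% in cKO. These counts thus do not set divergent pairs apart from other pairs, and they were not tested.

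Several loci held more than 1 of the RNAs, and those named here were picked after their values were seen. Gm16175 and 4932422M17Rik were also named by the size of their changes, and Mirt1 as a list member. The cKO calls for Pg of Gm16175 and 4932422M17Rik held in all 19 other settings. The remaining RNAs have no values in other settings. At Exoc3l4 and Tnfaip2, the latter a gene induced by tumour necrosis factor, Gm10425 rose by 1.56 ± 0.18 and 1.37 ± 0.17 and Gm40578 by 1.46 ± 0.18 and 1.47 ± 0.19, with Tnfaip2 at 0.98 ± 0.06 and 0.93 ± 0.06. Of the exon length of Gm10425 and Gm40578, 26.4% and 29.4% lies in coding exons. At Bcl3, an atypical inhibitor of NF-kB, Gm16174 rose in both (0.80 ± 0.25 and 1.17 ± 0.24) and Gm16175 was called in cKO (2.07 ± 0.41), although 64.9% of the exon length of Gm16175 lies in exons of Bcl3, which rose by 0.59 ± 0.07 and 0.63 ± 0.07. Gm16175 was also called lower in cKO than in cHet controls, a call lost in 11 of 19 other settings (log2 -1.68 to -1.31 across them). Near Setd1b, a histone methyltransferase that fell by 0.77 ± 0.07 and 1.09 ± 0.07 on the log2 scale, AI480526 (-0.89 ± 0.16 and -0.82 ± 0.16) and Gm38102 (-0.94 ± 0.34 and -1.34 ± 0.32) were lower in both genotypes and 4932422M17Rik in cKO. The Gm38102 and 4932422M17Rik spans lie within that of AI480526 on the other strand, and whether their reads were told apart by strand is not known. Near Dusp5, a phosphatase that inactivates ERK kinases, 4833407H14Rik rose by 0.93 ± 0.25 and 1.43 ± 0.25, while Mirt1, whose span contains it on the other strand, changed by 0.13 ± 0.19 and 0.26 ± 0.20 and passed neither test.

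Between genotypes, more of the called RNAs were higher in cKO than lower. In controls 26 of 392 passed (6.63%), 22 higher in cKO and 4 lower, against 5.15% of all genes (2.13% higher and 3.02% lower). Under Pg 9 passed (2.30%), 8 higher and 1 lower, against 1.85% (0.652% higher and 1.20% lower). For the mean of both differences 31 passed (7.91%), 27 higher and 4 lower, against 4.91% (2.13% higher and 2.78% lower). The share called was close to the background under Pg, and the direction differed from it in each comparison. The counts fell when any 1 library of the groups compared was left out, which also leaves fewer libraries to test. In controls they were 17, 16, 12, 17, 17 and 9 without cHet control 1, 2 and 3 and cKO control 1, 2 and 3 in turn. Under Pg they were 4, 2, 5, 6, 3 and 6 without cHet Pg 1, 2 and 3 and cKO Pg 1, 2 and 3 in turn. Without the 4 libraries that stood apart, 25 of 29 called RNAs were higher in controls and 30 of 34 for the mean of both. The genotype comparisons share libraries with each other and with the Pg comparisons.

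The shift was also in RNAs that were not called. For the mean of both differences, 259 of 392 RNAs (66.1%) were above 0 and the median was 0.12 on the log2 scale, beside 50.4% and 0.00 for all genes and 48.6% for protein-coding genes. The median was 0.10 in controls and 0.14 under Pg. Among lincRNAs 62.1% were above 0, among antisense RNAs 70.1%, and among the 167 RNAs that overlapped no coding gene 65.3%. By library-size scaling the median was 0.13, beside 0.01 for all genes.

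**Figure D5:**
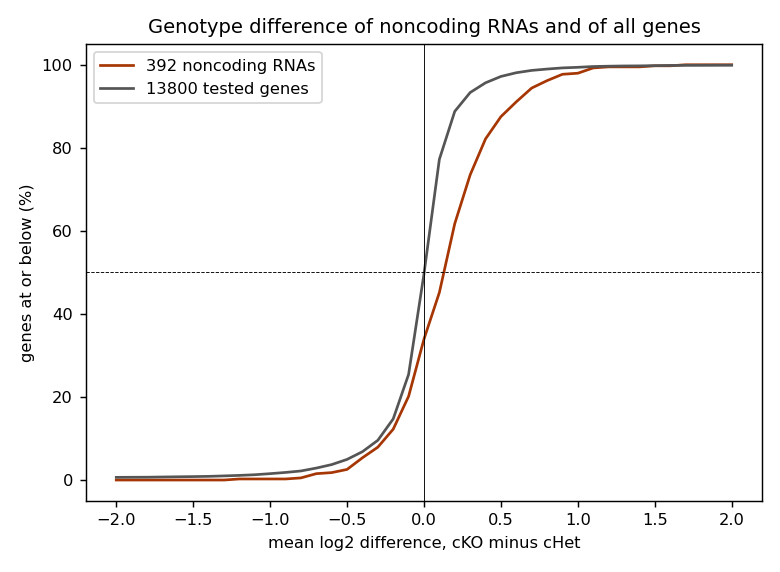
Cumulative percent of genes at or below each mean log2 difference between cKO and cHet, for the 392 noncoding RNAs and the 13800 tested genes. The curve of the noncoding RNAs lies to the right, with a median of 0.12 beside 0.00, while both have few genes beyond 1 in either direction.

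Stromal and fibroblast markers moved with genotype in the opposite direction. Of 14 listed and 11 tested, 9 were lower in cKO controls and 8 under Pg. Their summed level was 79.4 to 140 CPM in cHet control and 35.9 to 64.3 in cKO control, and 111 to 191 in cHet Pg and 41.2 to 75.5 in cKO Pg, with Col1a1 at a mean of 4.43 and 0.0997 CPM in controls and Lum at 0 in all libraries. Of the 13 macrophage markers, 1 was lower in cKO for the mean of both differences (Lyz2) and 1 was higher (Cx3cr1). Jchain, of the 7 tested B and plasma cell markers, was higher in cKO for that mean (1.58 ± 0.25, adjusted p 0.00075), the direction of most called RNAs, with 1.04 and 3.86 CPM in cHet and cKO control. Gata2, of the 5 tested mast cell and basophil markers, was lower (-0.98 ± 0.19, adjusted p 0.0044). None of the tested granulocyte, dendritic, T and NK cell or erythroid markers passed between genotypes. The part of these markers in the differences of the noncoding RNAs was not tested.

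Gm42047 (ENSMUSG00000110631, lincRNA, chromosome 8, 121833247 to 121841178, plus strand) lies 36934 bases from the start of Klhdc4 and within the span of Gm20388. It had the smallest adjusted p for the mean of both differences. It was at 27.8, 32.8 and 36.2 CPM in cHet control and 50.8, 64.4 and 59.5 in cKO control, and at 25.5, 25.3 and 27.4 in cHet Pg and 48.1, 40.2 and 54.1 in cKO Pg. Each cKO library was above each cHet library. The difference was 0.85 ± 0.12 in controls, 0.87 ± 0.12 under Pg and 0.86 ± 0.08 on average (adjusted p 0.00041, 0.00066 and 8.3e-06). Klhdc4 itself differed by -0.06 and did not pass.

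Gm20045 (chromosome 1, 171320601 to 171326177, minus strand), whose transcription start site is 2968 bases from that of Dedd, a death-effector protein gene, was at 0.779, 0.990 and 0.685 CPM in cHet control, 2.02, 2.18 and 2.63 in cKO control, 0.632, 0.634 and 0.536 in cHet Pg and 1.75, 1.92 and 1.58 in cKO Pg. No cKO library overlapped a cHet library, and the mean difference was 1.5 ± 0.21 (adjusted p 0.00024). With all cHet libraries under 1 CPM, Gm20045 met the minimum mean only through the cKO libraries. 4732440D04Rik (chromosome 1, 6209866 to 6215293, minus strand), antisense within the autophagy gene Rb1cc1, was higher by 1.05 ± 0.14 on average (adjusted p 0.00014), from 3.45, 2.50 and 3.80 to 5.41, 5.73 and 5.25 CPM in controls and from 2.04, 3.03 and 2.95 to 6.52, 6.05 and 7.77 CPM under Pg, while Rb1cc1 differed by -0.01. 5830416I19Rik (chromosome 5, 64044978 to 64050228, plus strand) was at 0.779, 0.175 and 0.374 CPM in cHet control and 3.03, 1.93 and 2.33 in cKO control. It had the highest fold between genotypes in controls, 2.42 ± 0.41 (adjusted p 0.0018), and differed by 0.82 ± 0.42 under Pg without passing (adjusted p 0.46). Its cHet control libraries were all under 1 CPM, so it met the minimum mean through other groups.

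Others higher in cKO on average were 6720427I07Rik (1.04 ± 0.19, adjusted p 0.0021), 2610037D02Rik (0.89 ± 0.16, adjusted p 0.0026), Gm21781 (0.72 ± 0.10, adjusted p 0.00023), Gm37233 (0.68 ± 0.11, adjusted p 0.0010) and the small nucleolar RNA host Snhg12 (0.73 ± 0.16, adjusted p 0.011). 1700071M16Rik, antisense within Pla2g7, the gene of a secreted phospholipase, went from 3.34, 2.80 and 3.05 to 6.43, 6.42 and 7.18 CPM in controls (1.12 ± 0.16, adjusted p 0.00032) and from 5.41, 5.91 and 5.16 to 5.98, 6.33 and 7.22 CPM under Pg (0.25 ± 0.15, adjusted p 0.58). D730003I15Rik, whose transcription start site is 6415 bases from that of the stress-response factor Atf3, differed by 1.18 ± 0.22 in controls (adjusted p 0.0041) and 0.40 ± 0.21 under Pg (adjusted p 0.47). In these 2 RNAs the cHet level rose with Pg (0.84 ± 0.16 and 0.94 ± 0.23) towards that of cKO, and neither passed the test of the difference between responses (adjusted p 0.085 and 0.27).

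Lower in cKO on average were 4 RNAs, among them Gm26522 at Ctsc (-0.76 ± 0.14, adjusted p 0.0036) and Gm48653 (-0.58 ± 0.12, adjusted p 0.0071). Gm48653 (chromosome 12, 73355081 to 73361997, plus strand) was at 10.3, 9.55 and 11 CPM in cHet control and 4.7, 4.74 and 5.19 in cKO control (-1.07 ± 0.17, adjusted p 0.00094), and at 5.48, 7.67 and 9.11 in cHet Pg and 6.66, 6.33 and 7.98 in cKO Pg, where libraries overlapped. With Pg it changed by -0.47 ± 0.17 in cHet (adjusted p 0.035) and 0.52 ± 0.18 in cKO (adjusted p 0.031), the opposite calls noted above. The cHet call was lost without cHet control 1 or 3 or cHet Pg 1 or 2 (adjusted p up to 0.17), and the cKO call by library-size scaling and without any 1 cKO control library or cKO Pg 3 (adjusted p up to 0.22). The interaction was 0.99 ± 0.24 and did not pass (adjusted p 0.072). The other 2 were Gm26813 (-0.78 ± 0.20, adjusted p 0.028), lost when any 1 of 7 libraries was left out (adjusted p up to 0.0825), and Gm26669 (-1.22 ± 0.33, adjusted p 0.043), lost without any 1 of 11 libraries (adjusted p up to 0.11), of whose exon length 92.5% lies in exons of Zfp36l1.

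Few neighbours were called between genotypes. Of 25 tested neighbours of RNAs higher in cKO, 1 was higher (Tnnt3, overlapped by Prr33, a locus the table classes as lincRNA) and 0 lower, near the 2.13% of all genes, and of 4 neighbours of RNAs lower in cKO none was called. At an unadjusted p under 0.05, 90 of the 392 RNAs (23%) differed on average, against 16.7% of all genes.

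Mir155hg was higher in cKO under Pg (0.51 ± 0.11, adjusted p 0.031), the values being those given above. That call was lost without cHet control 3, cHet Pg 1 or 2, or any 1 cKO Pg library (adjusted p up to 0.14). In controls the difference was 0.27 ± 0.13 (adjusted p 0.29), and the Pg response did not differ between genotypes by the test (0.24 ± 0.17, adjusted p 0.63). The mean of both genotype differences of Mir155hg passed (0.39, adjusted p 0.016). Of 18 other settings that call was lost in 1, without cHet control 3 (adjusted p 0.053). Gm13391 (0.53 ± 0.12, adjusted p 0.019) and Gm45515 (0.69 ± 0.16, adjusted p 0.032) were also higher in cKO under Pg. The Gm13391 call was lost without cHet Pg 1 or 2 or cKO Pg 1 or 2 (adjusted p up to 0.11), and that of Gm45515 without any 1 of the 6 Pg libraries (adjusted p up to 0.13).

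A difference between the genotypes' Pg responses passed the test for 1 of the 392 RNAs, AW112010, against 0.717% of all genes. AW112010 (ENSMUSG00000075010, lincRNA, chromosome 19, 11047617 to 11050566, minus strand) is known as an RNA induced in activated macrophages, from which translation of a small protein has been described. Its levels were 17.8, 21 and 20.5 CPM in cHet control and 16.5, 17.1 and 16.9 with Pg, and 29.6, 25.2 and 30.5 in cKO control and 11.4, 9.03 and 13.8 with Pg. The cKO control libraries were the highest and the cKO Pg libraries the lowest of the 12. Pg changed it by -0.23 ± 0.13 in cHet (adjusted p 0.17) and by -1.32 ± 0.13 in cKO (adjusted p 4.6e-07), a difference of -1.09 ± 0.18 (adjusted p 0.0095), which passed in all 18 other settings. Between genotypes it was higher in cKO controls (0.53 ± 0.12, adjusted p 0.017) and lower under Pg (-0.56 ± 0.13, adjusted p 0.036). The control call was lost without cHet control 1 or 3 or cKO control 1 or 3 (adjusted p up to 0.094), and the Pg call without cHet control 3, any 1 cHet Pg library or cKO Pg 1 or 2 (adjusted p up to 0.19). At an unadjusted p under 0.05, 45 RNAs (11.5%) differed in response, against 12.6% of all genes, DESeq2 called 4, and 8 were called without the 4 libraries that stood apart.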

How the data were processed

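Poly-A RNA of 12 libraries (3 in each of 4 groups) had been reduced by the authors to raw read counts per gene, the deposited unit. Per the submitters' processing notes the tools were fastp, HISAT2 2.0.5 and featureCounts 1.5.0-p3 on mm10. How strand and multi-mapped reads were handled, and which gene annotation was used, is not given in the sources used here. Antisense and overlapping counts may therefore hold reads of both genes.

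From the deposited counts, edgeR 4.0.16 (R 4.3.3) was run with filterByExpr, TMM scaling, 1 mean per group over all 12 libraries and the robust quasi-likelihood F test. Benjamini-Hochberg adjustment was over all 13800 genes tested, at a threshold of 0.05. All 392 RNAs were tested. Standard errors are the log2 change divided by the root of F, and CPM are on TMM-scaled sizes. Comparisons were Pg in each genotype, genotype in each treatment, their mean, and the interaction. The script was tested on simulated data. Alternatives included DESeq2 1.42.0, library-size scaling, no filter, a replicate block and leaving out each library.

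The RNAs and gene lists were chosen with earlier results of these data known. Genes were named by up to 8 of the largest changes in each direction, by smallest adjusted p, or as list members, apart from those said to be picked after their values were seen. The neighbour was the protein-coding gene with the nearest start. RNAs on X and Y were left out, and 1 further gene is not reported here. Same-numbered libraries showed no consistent likeness in their deviations from the group means (r -0.29 to 0.32). This cannot exclude a pairing, and the main test used none.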

Additional observations from a re-analysis of the deposited data

Results flagged for a closer look

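The Pg response of AW112010 differed between genotypes by -1.09 on the log2 scale (cKO minus cHet), by the edgeR interaction test over all genes. The response was -0.23 ± 0.13 in cHet and -1.32 ± 0.13 in cKO. AW112010 took mean levels of 19.8 and 16.8 CPM in cHet control and Pg and of 28.5 and 11.4 CPM in cKO control and Pg. The stromal markers that differ between genotypes were lower in cKO under both treatments, Jchain was higher and Gata2 lower on average, and their part in this difference was not tested.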

How the results depend on the processing

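The numbers of RNAs called moved by over 1.5 times in the following settings. Without RNAs whose span overlaps a coding gene they were 58 for Pg in cHet, 67 for Pg in cKO, 16 for genotype in controls and 18 for the mean of both genotype differences, since fewer RNAs are counted. With a minimum of 2 CPM, 86 were called for Pg in cKO. With no filter on low counts, 42 were called between genotypes in controls, 16 under Pg and 4 for the interaction, and the cause was not tested. DESeq2 called 4 for the interaction. Without the 4 libraries that stood apart, a setting chosen after seeing the data, 8 were called for it. Leaving out 1 library gave 98 to 129 for Pg in cHet, 102 to 133 for Pg in cKO, 9 to 29 for genotype in controls, 2 to 10 under Pg, 21 to 30 for the mean of both and 1 to 2 for the interaction. With a replicate block the counts were 119, 122, 22, 8, 28 and 1 in that order. Same-numbered libraries deviated together (r over 0.1) in 5 of 18 pairs, and 3 of 12 libraries correlated best with their own number. Of 2259 values of named genes under other settings, 2048 kept their direction and their side of the threshold, 211 kept their direction only, and 0 reversed. Most of the RNAs lie at a few CPM, where fewer changes pass.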
